A study of Mus musculus with 16 samples.

Results

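The sarcomeric myosin heavy chains are the motor proteins of the thick filament of striated muscle. The members were the 8 genes *Myh1*, *Myh2*, *Myh3*, *Myh4*, *Myh6*, *Myh7*, *Myh7b* and *Myh8*, taken by name from the 24421 genes of the count tables, and all 8 passed the filter on low counts in every comparison. RNA was sequenced from the gastrocnemius (Gas), a muscle made mostly of fast fibers, and the soleus (Sol), which is rich in slow fibers. The mice were male C57BL/6 animals aged 8 weeks. LSD1-mKO mice carry floxed *Lsd1* alleles on both chromosomes and a CreERT2 recombinase under the human ACTA1 promoter, which is active in skeletal muscle fibers, so that tamoxifen removes *Lsd1*, which encodes a histone demethylase and stands in the tables as *Kdm1a*. WT mice had floxed alleles but no CreERT2, so that the recombinase itself also differs between the genotypes, and all mice received tamoxifen at 75 mg/kg for 5 days and dexamethasone, a synthetic glucocorticoid, at 1 mg/kg for 7 days. Untreated muscle was not part of these data. There were 16 libraries, 3 of WT and 5 of LSD1-mKO mice for either muscle.

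An adult skeletal muscle fiber expresses mainly one heavy chain, which sets its speed of contraction and names its type. *Myh7* encodes the slow chain of type I fibers, *Myh2* the chain of type IIA fibers, *Myh1* that of type IIX fibers and *Myh4* the fastest chain, that of type IIB fibers. *Myh3* and *Myh8* encode the embryonic and the perinatal chain, which are replaced after birth and return in regenerating or denervated fibers. *Myh6* encodes the alpha chain of the heart, and *Myh7b* an ancient relative of the slow chain that hosts a microRNA.

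*Myh3*, *Myh2*, *Myh1*, *Myh4* and *Myh8* lie in this order on the plus strand of chromosome 11, followed by *Myh13* of extraocular muscle. The 6 genes span 293287 bases, from 67078300 to 67371586 (GRCm38, GENCODE). *Myh6* and *Myh7* are neighbours on the minus strand of chromosome 14, and *Myh7b* lies on chromosome 2 (155611212 to 155634307). The promoters of the 3 adult fast chains and of the perinatal chain are shown because they hold a common element. Their genes include *Myh1* and *Myh8*, which had an edgeR unadjusted p under 0.05 between the genotypes in both muscles. No chain passed the adjusted threshold between the genotypes. Each sequence is a stretch of 95 bases upstream of the RefSeq start (GRCm38.p6, plus strand) that ends with a run of 14 bases, in capitals, which is the longest run that the 4 promoters share. Capitals upstream of it mark a match to the MEF2 element, which binds a muscle transcription factor.

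Myh1 (chr11:67199861-67199955): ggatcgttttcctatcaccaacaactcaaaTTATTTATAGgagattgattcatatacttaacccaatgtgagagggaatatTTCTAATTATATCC
Myh2 (chr11:67170821-67170915): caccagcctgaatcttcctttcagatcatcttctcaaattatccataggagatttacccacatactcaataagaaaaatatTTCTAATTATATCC
Myh4 (chr11:67237573-67237667): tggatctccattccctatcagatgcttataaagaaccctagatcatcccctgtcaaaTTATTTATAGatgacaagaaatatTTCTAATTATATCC
Myh8 (chr11:67276989-67277083): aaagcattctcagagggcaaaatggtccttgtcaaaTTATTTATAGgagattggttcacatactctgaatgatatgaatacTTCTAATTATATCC

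Counted from the start of the gene, the shared run began at base -160 in *Myh1*, -125 in *Myh2*, -158 in *Myh4* and -54 in *Myh8*. On either strand it was found in 4 of 32851 promoters of 300 bases (250 before and 50 after the start), which were those of these 4 genes. A MEF2 match stood in the windows of *Myh1*, *Myh4* and *Myh8*, at bases -211, -182 and -99, and in 3.19% of all promoters. No match of these letters was found in the promoter of *Myh2*. The letters AGAACA, which form a glucocorticoid receptor half-site, were found in the *Myh4* promoter at base -42 and in no other member's promoter, while 19% of all promoters hold them on either strand.

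4 members host a microRNA in an intron. The mature forms from the slow chain, the alpha chain and *Myh7b* are shown because their seeds (bases 2 to 8, in capitals) are alike. The sequences are those of RefSeq for GRCm38.p6.

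mmu-miR-208a-3p (intron of Myh6): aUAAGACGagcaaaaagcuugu
mmu-miR-208b-3p (intron of Myh7): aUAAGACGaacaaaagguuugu
mmu-miR-499-5p (intron of Myh7b): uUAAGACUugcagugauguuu

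The first and the second share the seed UAAGACG. These libraries do not measure mature microRNAs, so none of their levels is given.

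The reads assigned to genes numbered between 10130415 and 24576377 per library. The labels do not tie a library to a mouse, so p-values measure the spread between these libraries, which may be partly technical. The mean level of ribosomal protein genes was computed within each muscle, in log2 CPM (CPM being reads scaled to a common library total, with TMM factors). In Gas it stood out at 8.74 for WT replicate 3 and 8.08 for LSD1-mKO replicate 5, against 7.26 to 7.66 in the other Gas libraries. In Sol it was 7.70 for WT replicate 2, against 6.83 to 7.24 in the other Sol libraries. That Sol library was thus high only within its muscle. The 5 skeletal muscle markers summed to between 54743 and 87017 CPM in the 16 libraries. The 3 heart markers together reached at most 2.39 CPM. The targeted gene *Kdm1a* had 40.6, 37.8 and 44.2 CPM in WT Gas and 13.5, 13.6, 17.9, 14.8 and 11.9 CPM in LSD1-mKO Gas. In Sol it had 34.2, 34.5 and 33.5 CPM in WT and 11.2, 9.15, 12.2, 9.12 and 12.8 CPM in LSD1-mKO. Every LSD1-mKO library lay below every WT library (log2 fold change -1.56 in Gas, edgeR adjusted p = 0.0177, and -1.66 in Sol, edgeR adjusted p = 0.000574). When each library was left out in turn, the Gas call held 2 times out of 8, and adjusted p reached 0.134.

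The fiber types of the muscles were examined first through Sol against Gas within a genotype, in a fit over the 16 libraries. In WT, 6 of the 8 chains differed between the muscles, where 17.0% of the 13749 genes tested did. The type IIB chain was almost absent from Sol, and the slow, IIA, embryonic, alpha and *Myh7b* chains were higher there. *Myh4* had 54372, 52137 and 30855 CPM in the WT Gas libraries and 53.7, 141 and 28.0 CPM in the WT Sol libraries, a log2 fold change of -9.27 (SE 0.943, edgeR adjusted p = 7.02e-06). *Myh7* had 149, 183 and 197 CPM in WT Gas and 8204, 6529 and 8928 CPM in WT Sol, a log2 fold change of 5.45 (SE 0.271, edgeR adjusted p = 3.53e-09). The groups lay far apart for both chains. *Myh2* was 2.75 higher in Sol on the log2 scale (SE 0.489, edgeR adjusted p = 0.00100), *Myh3* 3.13 (SE 0.450, adjusted p = 0.000171), *Myh6* 2.43 (SE 0.274, adjusted p = 1.65e-05) and *Myh7b* 3.38 (SE 0.186, adjusted p = 8.91e-09). The reads of *Myh6* came to only 0.178% to 0.186% of those of *Myh7* in WT Sol. Whether some of them were misassigned reads of *Myh7* was not tested. The muscles did not overlap for 7 of the 8 chains, which includes *Myh1*, against 30.4% of all genes tested. *Myh1*, with a log2 fold change of 0.82 (edgeR adjusted p = 0.439), and *Myh8*, with 1.21 (edgeR adjusted p = 0.0915), did not pass the threshold. Because whole muscle was sequenced, fewer fibers of a type and less RNA per fiber cannot be told apart here or in any later comparison.

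In LSD1-mKO, the same 6 chains differed between the muscles, each in the direction seen in WT, where 24.5% of all genes did. The log2 fold change was -6.21 for *Myh4* (SE 0.640, edgeR adjusted p = 3.24e-06), 5.0 for *Myh7*, 4.15 for *Myh3*, 3.49 for *Myh7b*, 2.40 for *Myh6* and 2.29 for *Myh2*. The muscles did not overlap for these 6 chains, against 20.9% of all genes. *Myh1* had 0.63 (edgeR adjusted p = 0.420) and *Myh8* -0.05 (edgeR adjusted p = 0.939). With the replicate number as a block, 6 chains were called in LSD1-mKO as well. The fits without a single library, and those that left out the libraries of high ribosomal protein level, also called 6 chains in each genotype.

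**Figure D1:**
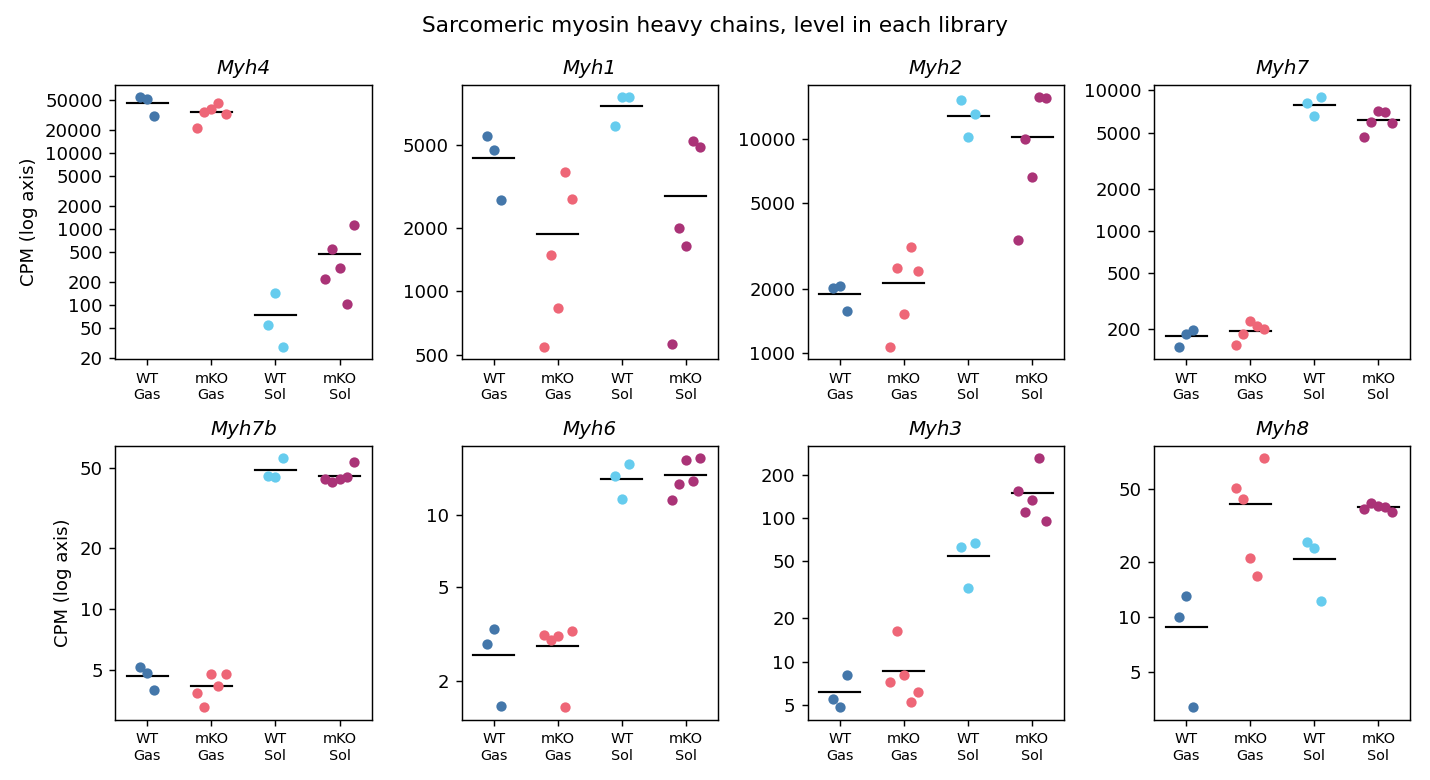
Level of each chain in the 16 libraries, in CPM on a log axis, for WT and LSD1-mKO (mKO) in Gas and Sol; points are libraries and lines are group means. *Myh4* ran from 21132 to 54372 CPM in Gas, and in Sol from 28.0 to 1134 CPM, and *Myh8* lay higher in all LSD1-mKO libraries than in the WT libraries of the same muscle.

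Levels were compared between chains per kilobase of transcript. In WT Gas the order was *Myh4* with 7611 ± 2158 CPM per kb (SD, n = 3), *Myh1* with 726 ± 242, *Myh2* with 309 ± 43.3 and *Myh7* with 28.3 ± 3.90, and no neighbours in this order overlapped. The other chains lay at 1.43 CPM per kb or lower. In LSD1-mKO Gas *Myh4* led with 5757 ± 1493 CPM per kb (SD, n = 5), followed by *Myh2* with 350 ± 135 and *Myh1* with 315 ± 225, which overlapped, and by *Myh7* with 31.2 ± 4.43. In WT Sol *Myh2* led with 2107 ± 416 CPM per kb (SD, n = 3), followed by *Myh1* with 1286 ± 221 and *Myh7* with 1266 ± 198, which overlapped. In LSD1-mKO Sol the order was *Myh2* with 1683 ± 888 CPM per kb (SD, n = 5), *Myh7* with 985 ± 164, *Myh1* with 481 ± 347, *Myh4* with 76.8 ± 68.1 and *Myh3* with 24.9 ± 10.9, and each of these overlapped the next.

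Between 78.85% and 100% of the stretches of 75 bases, the read length, were unique to a chain's transcript. *Myh1* had the lowest share and *Myh7b* the highest, and *Myh1* and *Myh2* shared 755 such stretches. Reads that fit several genes were not counted, so the levels of close paralogs are uncertain, and the counting did not use the strand. Reads of the antisense RNA Myhas, which shares 291 of these stretches with *Myh1*, therefore cannot be told apart from reads of the chains it overlaps.

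Whether loss of LSD1 changed the chains was asked within each muscle. In Gas, 0 of the 8 chains had an edgeR quasi-likelihood adjusted p under 0.05, where 4 of 13040 genes (0.0307%) did. At an unadjusted p under 0.05 there were 2 chains, *Myh1* and *Myh8*, against 9.06% of all genes, and WT and LSD1-mKO did not overlap for 1 chain, *Myh8*, against 6.94% of all genes. DESeq2 called 1 chain, *Myh8*, and 132 of 13011 genes (1.01%). In Sol, 0 of the 8 chains passed by edgeR, where 129 of 13342 genes (0.967%) did. An unadjusted p under 0.05 was found for 4 chains, *Myh1*, *Myh3*, *Myh4* and *Myh8*, against 15.5% of all genes, and the genotypes did not overlap for *Myh1*, *Myh3* and *Myh8*, against 10.9% of all genes. DESeq2 called 2 chains, *Myh3* and *Myh8*, and 605 of 13337 genes (4.54%).

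The type IIX chain *Myh1* had a lower mean in LSD1-mKO than in WT in both muscles, without passing the adjusted threshold. In Gas it had 5506, 4704 and 2719 CPM in the WT libraries and 547, 1498, 837, 3705 and 2767 CPM in the LSD1-mKO libraries. The log2 fold change was -1.22 (SE 0.546, unadjusted p = 0.0481, edgeR adjusted p = 0.550), and LSD1-mKO replicates 4 and 5 reached into the WT range. Leaving out WT replicate 3 and LSD1-mKO replicate 5, the Gas libraries of high ribosomal protein level, the value was -1.62 (edgeR adjusted p = 0.374). In Sol the WT libraries had 6121, 8395 and 8390 CPM and the LSD1-mKO libraries 565, 1995, 1648, 5215 and 4856 CPM. Every LSD1-mKO Sol library lay below every WT one, with a log2 fold change of -1.43 (SE 0.544, unadjusted p = 0.0228, edgeR adjusted p = 0.238). Replicates 4 and 5 were the highest of the LSD1-mKO libraries in both muscles.

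The type IIB chain *Myh4* had 21132, 35174, 38146, 45810 and 32908 CPM in the LSD1-mKO Gas libraries, which overlapped the WT Gas libraries given above. Its log2 fold change in Gas was -0.43 (SE 0.295, edgeR adjusted p = 0.615). In Sol, where WT held from 28.0 to 141 CPM, the LSD1-mKO libraries had 218, 549, 307, 103 and 1134 CPM. Of these 5 libraries, 4 lay above every WT Sol library and replicate 4 lay inside the WT range. The log2 fold change in Sol was 2.60 (SE 0.762, unadjusted p = 0.00556, edgeR adjusted p = 0.134), and it lay between 1.95 and 3.50 in the fits without a single library.

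The type IIA chain *Myh2* had 2011, 2056 and 1579 CPM in WT Gas and 1072, 2494, 1527, 3140 and 2409 CPM in LSD1-mKO Gas. In Sol it had 15246, 10193 and 13017 CPM in WT and 3375, 10024, 6653, 15603 and 15535 CPM in LSD1-mKO. The genotypes overlapped in both muscles. The log2 fold change was 0.14 in Gas (SE 0.330, edgeR adjusted p = 0.879) and -0.33 in Sol (SE 0.423, edgeR adjusted p = 0.763). The value in Gas turned to -0.044 without LSD1-mKO Gas replicate 4.

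The slow chain *Myh7* had 153, 182, 226, 208 and 201 CPM in LSD1-mKO Gas and 4629, 6003, 7192, 6987 and 5880 CPM in LSD1-mKO Sol. Both sets overlapped the WT libraries, with log2 fold changes of 0.09 in Gas (SE 0.200, edgeR adjusted p = 0.871) and -0.37 in Sol (SE 0.209, edgeR adjusted p = 0.433). *Myh7b* ranged from 3.26 to 5.15 CPM in Gas and from 42.7 to 56.1 CPM in Sol over both genotypes (log2 fold changes -0.20 and -0.11, edgeR adjusted p = 0.727 and 0.742). *Myh6* ranged from 1.54 to 3.30 CPM in Gas and from 11.7 to 17.5 CPM in Sol (log2 fold changes 0.08 and 0.03, edgeR adjusted p = 0.933 and 0.956). The reads of *Myh6* came to between 0.178% and 0.297% of those of *Myh7* in Sol and to between 0.739% and 2.03% in Gas. The transcripts of *Myh6* and *Myh7* share 939 stretches of 75 bases.

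The perinatal chain *Myh8* was higher in every LSD1-mKO library than in any WT library of the same muscle. In Gas it had 10.04, 13.1 and 3.22 CPM in WT and 50.8, 44.2, 20.9, 16.7 and 73.5 CPM in LSD1-mKO, a log2 fold change of 2.20 (SE 0.558, unadjusted p = 0.00260, edgeR adjusted p = 0.330). In Sol it had 25.7, 23.9 and 12.2 CPM in WT and 38.8, 41.6, 40.3, 39.7 and 37.4 CPM in LSD1-mKO, a log2 fold change of 0.92 (SE 0.213, unadjusted p = 0.00110, edgeR adjusted p = 0.0681). The 5 LSD1-mKO Sol libraries were close together, while those of Gas spread widely. DESeq2 gave *Myh8* an adjusted p of 0.00526 in Gas and of 0.00306 in Sol. Leaving out WT replicate 3 and LSD1-mKO replicate 5, the log2 fold change in Gas was 1.53 (edgeR adjusted p = 0.274).

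The embryonic chain *Myh3* had 5.47, 4.80 and 8.01 CPM in WT Gas and 7.24, 16.2, 8.05, 5.20 and 6.18 CPM in LSD1-mKO Gas, and the genotypes overlapped (log2 fold change 0.45, edgeR adjusted p = 0.666). In Sol it had 62.8, 32.5 and 66.5 CPM in WT and 153, 109, 132, 260 and 94.8 CPM in LSD1-mKO. Every LSD1-mKO Sol library lay above every WT one, with a log2 fold change of 1.47 (SE 0.343, unadjusted p = 0.00121, edgeR adjusted p = 0.0712). When each Sol library was dropped in turn, *Myh3* passed the threshold 1 time out of 8, and its edgeR adjusted p reached 0.183. That 1 fit, without LSD1-mKO Sol replicate 5 (log2 fold change 1.60, edgeR adjusted p = 0.0418), called 1.72% of all genes. *Myh3* also passed by DESeq2 (adjusted p = 0.000805), which called 4.54% of all genes. The 3 satellite cell markers summed to 5.68 to 6.85 CPM in the WT Sol libraries and 6.50 to 8.55 CPM in the LSD1-mKO ones, and the 4 leukocyte markers to 7.89 to 12.3 CPM and 10.1 to 34.5 CPM. No marker of these lists was at 0 in every library, and their part in the values of *Myh3* and *Myh8* was not tested.

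**Figure D2:**
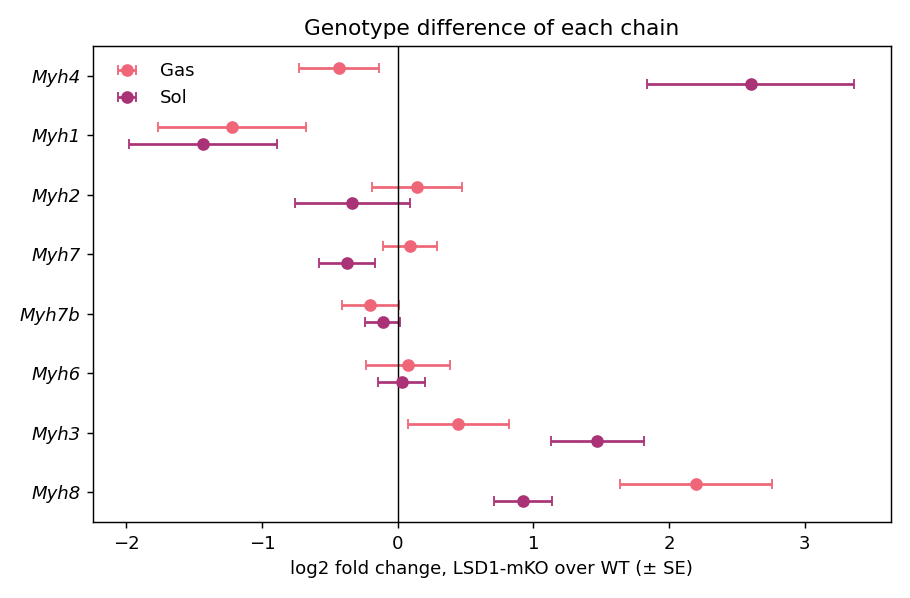
Log2 fold change of LSD1-mKO over WT for each chain in Gas and Sol, with its standard error as bars, from edgeR. *Myh8* lay at 2.20 in Gas and 0.92 in Sol, *Myh1* below 0 in both muscles, and *Myh4* at -0.43 in Gas and 2.60 in Sol.

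The share of each chain in the reads summed over the 8 chains describes the mixture within a library. The summed reads made up 3.09% to 5.57% of a WT Gas library and 2.26% to 5.42% of an LSD1-mKO Gas library. The ranges for Sol were 2.63% to 3.20% (WT) and 1.07% to 3.10% (LSD1-mKO). In Gas *Myh4* held 87.7% ± 0.487 of the reads in WT (SD, n = 3) and 89.4% ± 3.36 in LSD1-mKO (SD, n = 5, exact permutation p = 0.464). In Sol the reads were divided between *Myh2* with 44.7% ± 5.79, *Myh7* with 27.5% ± 1.76 and *Myh1* with 27.0% ± 6.28 in WT (SD, n = 3). The shares in LSD1-mKO Sol were 48.7% ± 8.69, 34.8% ± 12.9 and 12.6% ± 5.21 (SD, n = 5). A share also depends on the sum of the chains, so it can be higher where the level of the chain is lower. The mean level of *Myh7* in Sol was 7887 CPM in WT and 6138 CPM in LSD1-mKO, although its mean share was higher in LSD1-mKO. Tests of the shares were two-sided exact permutation tests of 3 against 5 libraries, which can reach a p of 0.0357 at the least, and 8 were made in each muscle without adjustment.

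*Myh1* held 8.87%, 7.96% and 7.69% of the chain reads in WT Gas and 2.38%, 3.80%, 2.05%, 7.01% and 7.21% in LSD1-mKO Gas (exact permutation p = 0.0357). In Sol its share was 20.6%, 33.1% and 27.5% in WT and 6.25%, 10.6%, 10.3%, 18.4% and 17.6% in LSD1-mKO (exact permutation p = 0.0357). *Myh1* thus held a smaller share in every LSD1-mKO library than in any WT library of the same muscle, and in LSD1-mKO its share was highest in replicates 4 and 5 of both muscles. The share of *Myh2* was 3.73% ± 0.649 in WT Gas (SD, n = 3) and 5.39% ± 1.14 in LSD1-mKO Gas (SD, n = 5, exact permutation p = 0.0714). For *Myh7* it was 0.368% ± 0.166 in WT Gas and 0.520% ± 0.103 in LSD1-mKO Gas (exact permutation p = 0.214). In Sol, neither *Myh2* (exact permutation p = 0.500) nor *Myh7* (exact permutation p = 0.536) passed, and the *Myh7* share ran from 21.3% to 51.2% among the LSD1-mKO libraries.

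The share of *Myh4* in Sol was 0.180%, 0.555% and 0.0918% in WT and 2.41%, 2.92%, 1.91%, 0.364% and 4.11% in LSD1-mKO (exact permutation p = 0.0714). The share of *Myh8* was 0.0158% ± 0.00652 in WT Gas (SD, n = 3) and 0.122% ± 0.0836 in LSD1-mKO Gas (SD, n = 5, exact permutation p = 0.0357), and 0.0735% ± 0.0294 and 0.236% ± 0.120 in Sol (exact permutation p = 0.0357). *Myh3* rose in share from 0.186% ± 0.05 in WT Sol (SD, n = 3) to 0.873% ± 0.510 in LSD1-mKO Sol (SD, n = 5, exact permutation p = 0.0357). At an unadjusted p under 0.05 the shares of 2 chains differed in Gas and those of 3 in Sol. Each had the least possible p, which restates that the groups did not overlap. Shares exist for the chains only, but by CPM 6.94% of all genes tested did not overlap in Gas and 10.9% in Sol. The shares of a library add up to a fixed total, so these tests are not independent. The *Myh1* tests gave the same p over the 4 adult chains alone.

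**Figure D3:**
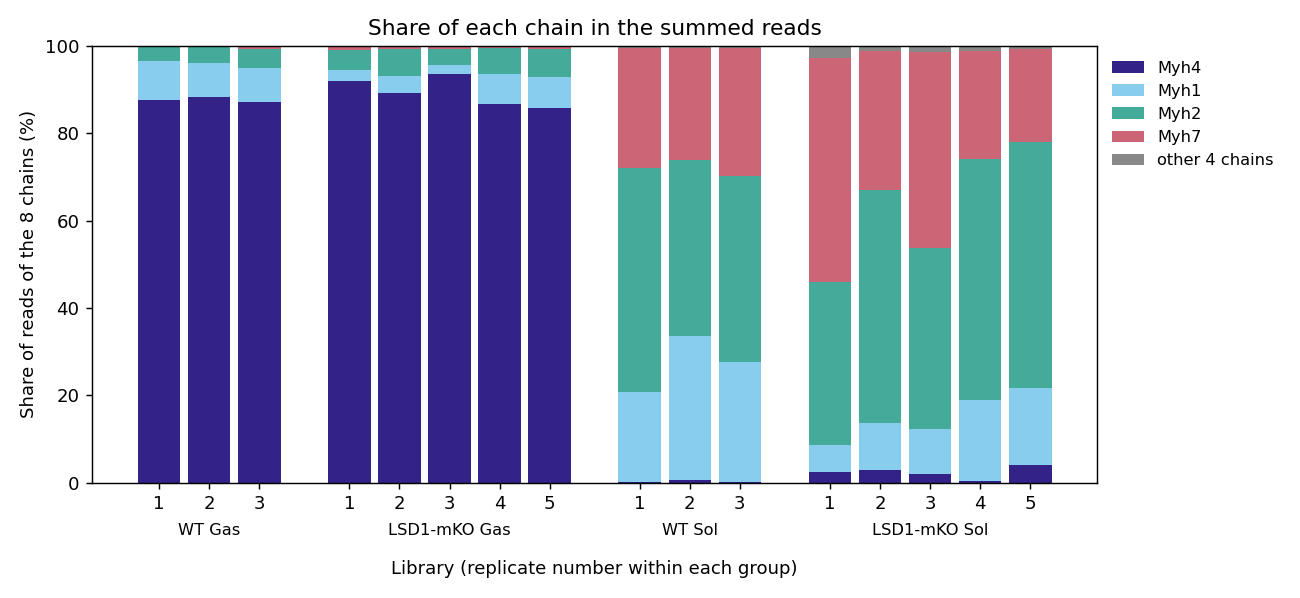
Share of each chain in the reads of the 8 chains, in percent, for the 16 libraries; each bar is a library, and the grey part sums *Myh3*, *Myh6*, *Myh7b* and *Myh8*. *Myh4* fills between 85.8% and 93.6% of the Gas bars, and the *Myh1* part is smaller in every LSD1-mKO library than in the WT libraries of its muscle.

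Ratios within a library do not depend on its scaling. They were formed after the values were seen and were not tested. The log2 ratio of *Myh2* to *Myh1* reads was -1.45, -1.19 and -0.784 in WT Gas and 0.972, 0.735, 0.867, -0.239 and -0.200 in LSD1-mKO Gas. In Sol it was 1.32, 0.280 and 0.634 in WT and 2.58, 2.33, 2.01, 1.58 and 1.68 in LSD1-mKO. The LSD1-mKO libraries lay above all WT libraries in each muscle. The log2 ratio of *Myh4* to *Myh1* ran from 3.30 to 3.50 in WT Gas and from 3.57 to 5.51 in LSD1-mKO Gas, and its ranges in Sol were -8.23 to -5.90 for WT and -5.66 to -1.37 for LSD1-mKO. These groups did not overlap either. Both ratios divide by *Myh1*, whose share also did not overlap between the genotypes, so they are not separate observations. The log2 ratio of *Myh2* to *Myh7* overlapped between the genotypes in both muscles, at 3.01 to 3.75 in WT and 2.76 to 3.91 in LSD1-mKO for Gas, and at 0.544 to 0.894 and -0.456 to 1.40 for Sol.

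**Figure D4:**
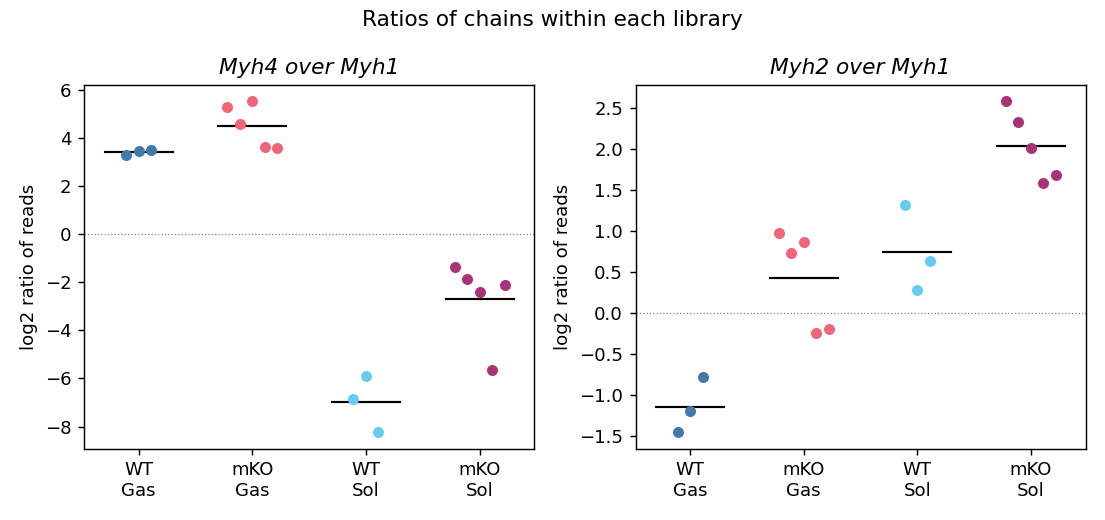
Log2 ratio of *Myh4* to *Myh1* reads (left) and of *Myh2* to *Myh1* reads (right) in each of the 16 libraries; points are libraries, lines are group means and the dotted line marks equal reads. In each muscle all LSD1-mKO (mKO) libraries lie above all WT libraries in both ratios, which share *Myh1* as denominator and are not separate observations.

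Whether the genotype effect differed between the muscles was tested as the interaction over the 16 libraries. By edgeR 0 of the 8 chains passed, as did 0% of the 13749 genes, and DESeq2 called 0 of the 8 chains and 0.153% of the genes. At an unadjusted p under 0.05 there were 2 chains, against 4.88% of all genes. *Myh4* had the largest difference of the chains, 3.07 on the log2 scale (SE 0.858, unadjusted p = 0.00231, edgeR adjusted p = 0.654), with the effect in Sol above that in Gas. For *Myh8* the effect in Sol was below that in Gas, by -1.26 (SE 0.593, unadjusted p = 0.0492, edgeR adjusted p = 0.987). The other 6 chains had an unadjusted p of 0.0718 or higher.

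Genes that work with the chains were counted in lists. In Sol against Gas, 12 of 13 slow fiber genes were higher and 10 of 11 fast fiber genes lower in WT, and the counts were the same in LSD1-mKO. In WT the largest of these were the slow calcium pump *Atp2a2*, with a log2 fold change of 5.31, and its regulator *Sln* with 4.62, and on the fast side the calcium buffer *Pvalb* with -5.79 and the fast alpha-actinin *Actn3* with -5.25. Between the genotypes in Gas, edgeR called 0 genes of any list. The slow fiber list had a median log2 fold change of 0.46, with 12 of 13 values above 0, and the fast fiber list -0.68, with 3 of 11 above 0, where the median of all genes was 0.01. In Sol the medians were -0.02 and -0.03, and the median of all genes was -0.01.

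In Sol, 4 listed genes were called between the genotypes, all higher in LSD1-mKO, where 0.967% of all genes were called. *Casq2*, a calcium store protein of slow and heart muscle, had 336 ± 38.5 CPM (SD, n = 3) in WT and rose to 725 ± 98.0 CPM (SD, n = 5) with LSD1 loss (log2 fold change 1.10, edgeR adjusted p = 0.0155). *Mybpc2*, the fast form of myosin binding protein C, rose from 323 ± 167 to 1101 ± 198 CPM (log2 fold change 1.74, edgeR adjusted p = 0.0373). *Mybph*, myosin binding protein H, and *Chrnd*, a subunit of the acetylcholine receptor, had log2 fold changes of 5.63 and 1.07 (edgeR adjusted p = 0.0155 and 0.0490). *Mybph* was near the floor in WT Sol, at 1.12 ± 0.355 CPM (SD, n = 3). In LSD1-mKO Sol it had 55.7 ± 53.0 CPM (SD, n = 5) and ran widely, from 15.5 to 146 CPM. *Chrnd* had 5.47 ± 1.59 CPM in WT Sol and 11.6 ± 2.22 CPM in LSD1-mKO Sol. Of the 10 developmental and denervation genes, 10 had a log2 fold change above 0 in Sol (median 0.82, 1 called), and 6 of 9 tested in Gas (median 0.49, 0 called). The medians of all genes were -0.01 in Sol and 0.01 in Gas. The lists were chosen with earlier results of these data known, so their directions are descriptions. The fiber type regulators had medians of 0.14 in Gas and -0.08 in Sol over 13 genes, with 0 called in either muscle. Of the 12 thick filament partners only *Mybph* was called, in Sol, and of the other myosin heavy chains 0 of 5 tested were called in either muscle.

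The genes around the cluster on chromosome 11 were read from the tables within 100 kb of *Myh3* and *Myh13*, a rule set after values of this region had been seen. Besides the members 7 genes were listed, of which Mir6923 had no read. The long noncoding RNA *2310065F04Rik*, for which RefSeq gives the synonym linc-Myh, lies between *Myh3* and *Myh2* (67112461 to 67120080, minus strand, GRCm38) and overlaps neither. It was singled out after its values were seen. In Gas it had 57.0, 54.2 and 54.1 CPM in WT and 2.30, 4.95, 1.15, 12.6 and 10.4 CPM in LSD1-mKO, a log2 fold change of -3.18 (SE 0.593, unadjusted p = 0.000284, edgeR adjusted p = 0.180). In Sol it had 6.91, 11.7 and 4.81 CPM in WT and 0.826, 2.30, 0.983, 3.66 and 3.23 CPM in LSD1-mKO, a log2 fold change of -1.86 (SE 0.461, unadjusted p = 0.00188, edgeR adjusted p = 0.0868). *2310065F04Rik* lay lower in every LSD1-mKO library than in any WT library of its muscle, and replicates 4 and 5 were the highest of the LSD1-mKO libraries in both muscles, as for *Myh1*. The DESeq2 adjusted p of *2310065F04Rik* was 9.87e-05 in Gas and 0.00368 in Sol. In WT *2310065F04Rik* was lower in Sol than in Gas (log2 fold change -2.84, edgeR adjusted p = 0.00782). Of the other neighbours, *Gas7* had a log2 fold change of 0.79 in Sol (edgeR adjusted p = 0.147), and *Tmem220*, *Adprm*, *Sco1* and *Myh13* had log2 fold changes between -0.19 and 0.31 over both muscles, with an edgeR adjusted p of 0.646 or more.

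The genes most like a chain were ranked by the lower of 2 Pearson correlations of log2 CPM, over the 8 Gas and over the 8 Sol libraries, among 10276 genes. These correlations mix both genotypes and share libraries and depth, so they are descriptions. For *Myh1* they were *Asb14* (0.95), *Pkia* (0.94) and *Khdrbs3* (0.94). For *Myh2* they were *Fhl1* (0.88), *Tmem65* (0.88) and *Pm20d2* (0.85), and for *Myh4*, *Mb21d2* (0.83), *Arrdc4* (0.74) and *Tbc1d19* (0.73). *Myh7* was nearest to *Mphosph10* (0.84), *Ddx42* (0.83) and *Utp20* (0.83). The highest values for *Myh1* were thus above those for the other 3 adult chains.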

How the data were processed

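Poly(A) RNA of 16 libraries was read from 1 end over 75 bases. The authors mapped the reads to mm10 with STAR. Per the file headers, featureCounts 1.5.2 then counted them over iGenomes UCSC exons, and the deposited values are these raw counts per gene, made with no strand option and without reads that fit several genes. The deposited tables of the authors' own comparisons (fold changes and p-values) were not used. All count columns were mapped to labelled samples (0 belonged to others), and groups and replicate numbers came from the labels.

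Counts were analysed with edgeR 4.0.16 in R 4.3.3: filterByExpr (minimum count 10), TMM scaling and two-sided quasi-likelihood F-tests over all genes, within a muscle for the genotypes and over 16 libraries for the muscles and the interaction. A call is an adjusted p (Benjamini-Hochberg) below 0.05. SE values divide a log2 fold change by the root of its F statistic. CPM values use TMM factors over the 16 libraries. Shares were tested with scipy 1.17.1. Alternatives were RLE scaling, no filter, DESeq2 1.42.0, a ribosomal protein covariate, the replicate block, a fit of all 16 libraries, another denominator or length scaling for the shares, and each library left out. Leaving out the libraries of high ribosomal protein level together was chosen after seeing the data. The scripts were tested on simulated counts.

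Same-numbered LSD1-mKO libraries of Gas and Sol deviated together (correlations of deviations from group means 0.260 to 0.399), a hint from the data only. The WT pairs ran from -0.572 to 0.140, and the pairs across genotypes from -0.185 to 0.333, so numbers were not taken to pair these.

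Transcripts and coordinates come from GENCODE vM21 (GRCm38), promoters and microRNAs from RefSeq GRCm38.p6, neither being the annotation used for counting. Named are the 8 members, *Kdm1a*, list genes called between genotypes (up to 4 per list), the 2 largest differences per fiber list between muscles, and the 3 genes most like each adult chain (mean of at least 50 reads). The members, lists and tests were chosen with earlier results of these data known. The gene counts set how precisely the low chains are measured, and depth intervals would cover counting error only.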

Additional observations from a re-analysis of the deposited data

Results flagged for a closer look

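In 3 of 36 checks of a group of 5 LSD1-mKO libraries, 1 library lay far from the others (Dixon's test, critical value 0.71 at 95%), where chance gives about 1 in 20. In LSD1-mKO Gas, *Myh3* reached 16.2 CPM in replicate 2, against 5.20 to 8.05 CPM in its other 4 libraries. *Myh6* was at 1.54 CPM in replicate 4 of that group, against 2.97 to 3.23 CPM. In LSD1-mKO Sol, *Myh7b* reached 53.5 CPM in replicate 5, against 42.7 to 45.3 CPM elsewhere in that group. With all libraries in the fit, edgeR called no chain between the genotypes of either muscle, these 3 included.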

How the results depend on the processing

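Between the genotypes, the count of chains called by edgeR (0 in each muscle) moved in Gas to 1 (*Myh8*) with DESeq2 (1.01% of all genes called, 0.0307% by edgeR) or all 16 libraries in 1 fit (0.451%). In Sol it moved to 3 without a filter on low counts (*Myh3*, *Myh4*, *Myh8*), to 2 with DESeq2 (*Myh3*, *Myh8*) and to 1 (*Myh3*) with the ribosomal protein covariate. The share of all genes called rose there too, from 0.967% to 1.64%, 4.54% and 2.4%. Without a single library it lay between 0 and 1, the 1 being *Myh3* without LSD1-mKO Sol replicate 5 (1.72% of all genes). With the replicate block, whose numbers are not known to pair the genotypes, 3 chains were called in Sol (*Myh1*, *Myh3*, *Myh4*, against 3.09% of all genes) and 0 in Gas. The block moved the log2 fold change of *Myh1* from -1.43 to -2.63 in Sol (edgeR adjusted p = 0.0138) and from -1.22 to -2.27 in Gas (edgeR adjusted p = 0.333), and that of *Myh2* in Sol from -0.33 to -1.07 (edgeR adjusted p = 0.249). That fit uses in effect only numbers 1 to 3. The causes were not tested. Between the muscles, 6 chains were called in LSD1-mKO under every alternative, and in WT under all but the block, which called 7. The interaction kept 0.

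Directions turned only for chains that were not called. Between the genotypes and in the interaction this was fixed in advance, because edgeR called no chain there. In Gas the chains that turned were *Myh2* (-0.28 with the replicate block, -0.044 to 0.31 without a single library), *Myh6* (-0.17 without the 2 libraries of high ribosomal protein level, -0.12 to 0.29 without a single library) and *Myh7* (-0.033 to 0.24). In Sol they were *Myh6* (-0.044 with the block, -0.077 to 0.16 without a single library) and *Myh7b* (-0.17 to 0.0077). *Myh8* between the muscles of LSD1-mKO had 0.075 with the ribosomal covariate, 0.16 with the block, 0.26 without the 3 libraries of high ribosomal protein level and -0.26 to 0.28 without a single library. For the interaction, *Myh6* had 0.051 with the covariate, 0.11 without the 3 libraries and -0.23 to 0.16 without a single one, and *Myh1* had 0.31 without the 3 libraries and -0.55 to 0.20 without a single one.

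With the 4 adult chains as denominator, 1 share passed in Gas and 1 in Sol (*Myh1*). Only these 4 chains were tested there, so *Myh3* and *Myh8* could not pass. All 24 share tests with this denominator or with length scaling kept their direction and their side of the threshold. Without a single library 0 passed in either muscle (0 to 0), because the smallest possible p is then 0.0571 or 0.0952, so these fits say nothing of stability.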
